A study of Mus musculus with 68 samples.

Results

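The 10 genes described here, which carry the amino acid signal to mTORC1, the mechanistic target of rapamycin complex 1, were measured in mouse prefrontal cortex. They are the arginine sensors Castor1 and Slc38a9, the Castor1 paralog Castor2, and the sestrins Sesn1 and Sesn3. The others are the GATOR1 subunits Depdc5, Nprl2 and Nprl3, and the mTORC1 subunits Rptor and Mtor. These 10 of the 18088 genes in the deposited table were found by symbol, and all 10 passed the filter on low values (a mean of at least 5 normalized counts). The group was chosen by the lithium differences of Castor2 and Slc38a9, which were higher under lithium, and was filled out with genes of the same pathway. The lithium values of all 10 genes are therefore a description, with no test.

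mTORC1 is a protein kinase that promotes protein synthesis and cell growth when amino acids are plentiful. Amino acids act on it at the lysosome through the Rag GTPases. GATOR1 switches the Rags off, GATOR2 restrains GATOR1, and the sestrins and the Castor1 protein bind GATOR2 when leucine or arginine is scarce. Loss of GATOR1 subunits in cortical neurons is a known cause of focal epilepsy and cortical malformation in people.

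RNA from prefrontal cortex was sequenced in 68 C57BL/6J mice of both sexes at postnatal day 25, with 1 library per mouse label. The mice were labelled as heterozygous for Adnp (HT) or wild type (WT), Adnp being a chromatin-associated gene mutated in a syndromic form of autism. The labels do not say which Adnp mutation was used. Drug reached the pups through the milk of a treated mother from day 3 to day 24, so the dose per pup is not known. There were 10 HT fluoxetine, 9 HT lithium, 16 HT vehicle, 10 WT fluoxetine, 8 WT lithium and 15 WT vehicle libraries. Fluoxetine blocks the reuptake of serotonin, and lithium salts are given to stabilize mood. Nothing in the labels says which pups shared a mother, so the p-values measure the spread between these libraries only.

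Depth ran from 22356015 to 37534435 reads recovered per library, with a median of 30743591. The lowest recovered count of any of the 10 genes in a library was 38, for Castor1, and for the other 9 it was 429 or more. The cortical excitatory neuron marker Slc17a7 was present in every library, at 33350 to 61820 normalized counts. Libraries labelled HT had more Adnp transcript, not less. The log2 difference of Adnp, HT minus WT, was 0.32 under vehicle (adjusted p = 0.0021, and 0.19 with adjusted p = 0.88 within set 2 of the library sets below), 0.32 under fluoxetine (adjusted p = 0.039) and 0.25 under lithium (adjusted p = 0.19), by limma. The libraries also fell into 3 sets by the levels of 361 pseudogenes, a division that the labels do not name. The 20 fluoxetine libraries fell in set 1, together with 8 of HT vehicle. The 17 lithium libraries fell in set 2, together with 6 of HT vehicle and 5 of WT vehicle. The other 10 of WT vehicle and 2 of HT vehicle made up set 3. A difference between groups that sit in different sets cannot be told apart from a difference between the sets. Each comparison is therefore also given within 1 set where a set holds both sides. The 10 genes lie on chromosomes 4 (Mtor, 148448611 to 148557683 on GRCm38), 5 (Castor2, Depdc5), 9 (Sesn3, Nprl2), 10 (Sesn1), 11 (Castor1, Nprl3 and Rptor, the last at 119602905 to 119899576) and 13 (Slc38a9). In these tissue samples fewer cells of a type and less RNA per cell cannot be told apart.

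The promoters of Castor2 and Slc38a9 are shown as the 250 bases before the start site, because the same short element was found in both. The sequences are from RefSeq on GRCm38.p6, plus strand, and capitals mark the match. All 10 genes were matched to a RefSeq start. The Castor2 window is chr5:134099498-134099747 and the Slc38a9 window is chr13:112660516-112660765.
Castor2: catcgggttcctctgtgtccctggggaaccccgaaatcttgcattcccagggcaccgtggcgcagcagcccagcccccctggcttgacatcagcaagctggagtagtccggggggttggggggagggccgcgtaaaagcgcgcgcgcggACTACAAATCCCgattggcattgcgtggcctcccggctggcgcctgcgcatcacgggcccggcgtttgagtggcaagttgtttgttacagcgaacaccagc
Slc38a9: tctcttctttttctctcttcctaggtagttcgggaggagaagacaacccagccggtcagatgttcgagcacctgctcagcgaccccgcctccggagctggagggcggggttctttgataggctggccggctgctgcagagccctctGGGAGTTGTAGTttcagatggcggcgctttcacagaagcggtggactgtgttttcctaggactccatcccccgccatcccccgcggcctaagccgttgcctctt
The element, ACTACAANTCCC with N for any base, was the longest stretch shared by both windows on either strand when 1 mismatch was allowed. It has the letters of a known binding motif of the transcription factor ZNF143, and was searched for on both strands. In Castor2 it read ACTACAAATCCC on the strand shown, starting 101 bases before the start site. In Slc38a9 it lay on the other strand, so that the printed strand reads GGGAGTTGTAGT, beginning 104 bases before the start site. It was absent from the same window of the other 8 genes and was found in 0.891% of 32536 RefSeq promoters. It was picked after these sequences had been read, so the share is a description. Among 4 other motifs, the E-box CACGTG was in 6.04% of promoters, the ATF4 composite element TGATGNAA in 3.40%, the FoxO element GTAAACA in 3.17% and the cyclic AMP response element TGACGTCA in 1.56%. None of these 4 was found in a window of the 10 genes.

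The genes differed widely in level. Per kilobase of the longest coding transcript, the mean normalized count over 68 libraries was highest for Castor2 (667 ± 83.3, SD), followed by Sesn3 (580 ± 34.9), Nprl2 (482 ± 33.1), Mtor (404 ± 42.5), Sesn1 (397 ± 27.6), Rptor (366 ± 36.0), Nprl3 (275 ± 15.9) and Depdc5 (196 ± 12.3). Slc38a9 (74.4 ± 5.81) and Castor1 (40.9 ± 9.93) were far lower on this scale. The lowest Castor2 library (541 per kilobase) was far above the highest library of its paralog Castor1 (75.5). Neighbours in this order were separated in most libraries, with Castor2 above Sesn3 in 65 of 68 and Rptor above Nprl3 in 68 of 68. Mtor and Sesn1 did not differ beyond their spread, Mtor being higher in 42 of 68 libraries. Castor1 also varied most, with a coefficient of variation of 24.3% over all libraries, against 12.5% for Castor2, 10.5% for Mtor and 9.83% for Rptor. The other 6 genes varied by 5.78 to 7.80%.

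Castor2, the paralog of the arginine sensor Castor1 that binds GATOR2 with little regard to arginine in human cells, was higher under lithium in both genotypes (chromosome 5, 134099711 to 134144343, GRCm38, plus strand). In HT mice the 4 lithium females had 5429, 5390, 5352 and 5754 normalized counts, and the 5 lithium males had 6454, 6177, 5886, 5959 and 5148. The 16 HT vehicle libraries ran from 3985 to 5168, with a median of 4620. Of the 9 HT lithium libraries, 8 were above the highest HT vehicle library. In WT mice the 5 lithium females had 5941, 5771, 6019, 5946 and 5493 normalized counts, and the 3 lithium males had 6630, 5159 and 5855. The 15 WT vehicle libraries ran from 4214 to 5207, with a median of 4744. Of the 8 WT lithium libraries, 7 were above the highest WT vehicle library, so a single lithium male in each genotype overlapped the vehicle range. The log2 difference, lithium minus vehicle, was 0.31 in HT (SE 0.04, 1.24-fold) and 0.30 in WT (SE 0.04, 1.24-fold). By sex, over all libraries and so across sets, it was 0.25 in HT females, 0.36 in HT males, 0.33 in WT females and 0.28 in WT males. The HT vehicle females of set 2 had 4708, 5168 and 4997 normalized counts, and the HT vehicle males of set 2 had 5013, 4699 and 4838. The WT vehicle females of set 2 had 4910, 5010 and 4744, and the WT vehicle males of set 2 had 5207 and 5178.

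The size of the difference depended on the library set. The 6 HT vehicle libraries of set 2 had 4699 to 5168 normalized counts of Castor2, against 3985 to 4972 in the 8 of set 1. The 10 WT vehicle libraries of set 3 had 4214 to 4915, against 4744 to 5207 in the 5 of set 2. Within set 2, which holds every lithium library, the Castor2 difference was 0.22 in HT (SE 0.05, 1.16-fold) and 0.21 in WT (SE 0.05, 1.16-fold). The same 8 of 9 HT and 7 of 8 WT lithium libraries lay above the highest vehicle library of their genotype there. Leaving out each set 2 library in turn moved the value between 0.20 and 0.24 in HT and between 0.17 and 0.26 in WT.

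**Figure D1:**
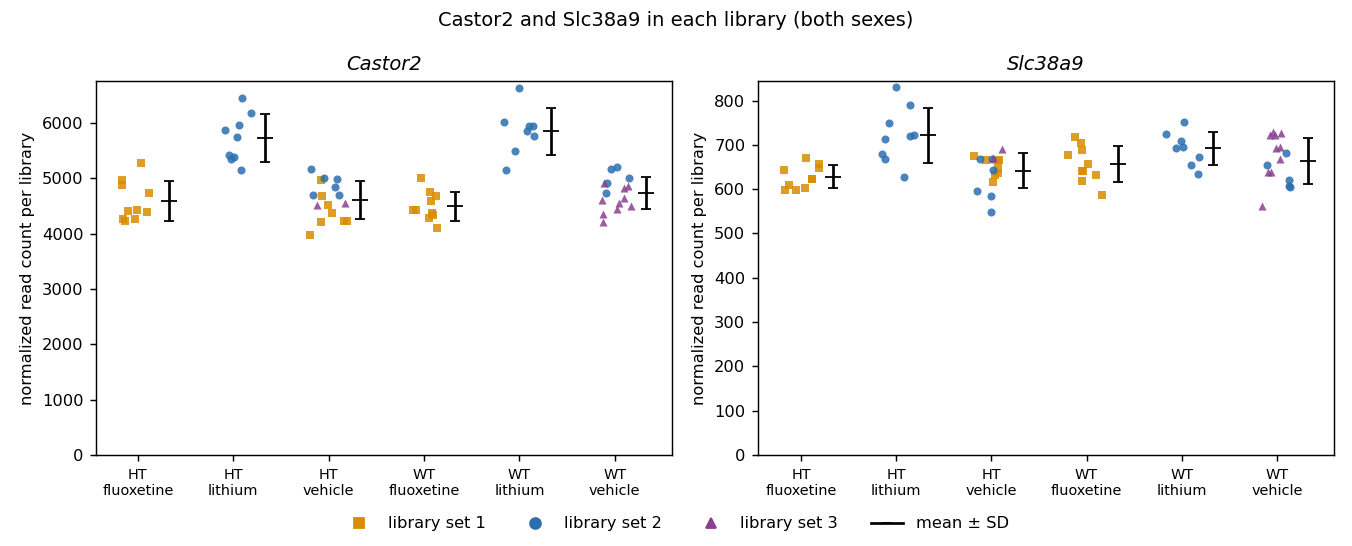
Normalized read count per library (y axis, from 0) of Castor2 and Slc38a9 in the 6 groups of genotype and drug, with marker shape and colour for the library set and black bars for mean ± SD. For Castor2, 8 of 9 HT lithium and 7 of 8 WT lithium libraries lie above every vehicle library of the same genotype, while the Slc38a9 groups overlap more.

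Slc38a9, the arginine-responsive transporter of the lysosomal membrane that binds the Rag GTPases and Ragulator, had a smaller difference than Castor2 over all libraries and one of like size in HT within set 2 (chromosome 13, 112660751 to 112738749, plus strand). The 4 HT lithium females had 713, 719, 679 and 749 normalized counts, and the 5 HT lithium males had 830, 789, 723, 627 and 667. The 16 HT vehicle libraries ran from 547 to 690, with a median of 654, and 6 of 9 HT lithium libraries were above them. In WT the lithium females had 693, 709, 724, 696 and 634, and the lithium males had 752, 655 and 672. The 15 WT vehicle libraries ran from 563 to 730, with a median of 667. Only 1 of the 8 WT lithium libraries exceeded that range, so the WT groups overlapped almost fully. The log2 difference was 0.17 in HT (SE 0.04, 1.12-fold) and 0.06 in WT (SE 0.05). Within set 2 it was 0.22 in HT (SE 0.05, 1.17-fold) and 0.13 in WT (SE 0.05). There 7 of 9 HT and 5 of 8 WT lithium libraries were above the highest vehicle library of set 2. The set 2 difference in HT was 0.11 in females and 0.33 in males. Within set 2 the lithium difference of HT minus that of WT was 0.09 for Slc38a9 (SE 0.07) and 0.00 for Castor2 (SE 0.07).

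In the fit over all libraries, 2 of the 10 genes were past the threshold (limma, Benjamini-Hochberg adjusted p under 0.05 over 17922 genes) in the lithium comparison of HT, where 1.52% of all genes tested were. In the lithium comparison of WT 4 were past it, where 36.1% of all genes were. Within set 2 the counts were 2 in HT (0.162% of all genes) and 1 in WT (0.664%). The lithium comparisons chose the group, so nothing is read from these counts. The median difference of the 10 genes was 0.07 in HT, against 0.00 for all genes, and 0.10 in WT, against -0.02 for all genes. Within set 2 the median was -0.0031 in HT, against 0.0018 for all genes, and -0.015 in WT, against -0.0013 for all genes. Apart from Castor2 and Slc38a9, the set 2 differences lay between -0.19 and 0.13 in HT and between -0.09 and 0.03 in WT.

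Among the other sensors, Castor1 had 46.5 to 79.1 normalized counts in the 9 HT lithium libraries (median 72.4), against 42.6 to 119 in the 16 HT vehicle libraries (median 56.3). In WT it had 67.2 to 94.5 under lithium (median 79.7), against 43.7 to 104 under vehicle (median 67.96). The groups overlapped in both genotypes, and the log2 difference of 0.15 in HT and 0.28 in WT became -0.19 and -0.08 within set 2. Sesn3, a sestrin known as a FoxO target, had 5183 to 6308 under lithium and 4733 to 5554 under vehicle in HT, and 6 of 9 lithium libraries were above all vehicle libraries. Its difference was 0.11 in HT (0.13 within set 2) and 0.01 in WT (0.01 within set 2). Sesn1, a leucine-binding sestrin known as a p53 target, had 1358 to 1808 under lithium and 1293 to 1689 under vehicle in WT. Its WT difference of 0.12 became -0.01 within set 2.

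The GATOR1 subunits had small differences under lithium. Depdc5, the subunit that contacts the Rag GTPases, had differences of 0.08 in HT and 0.06 in WT, and 0.04 and -0.03 within set 2. In HT it had 1606 to 1746 normalized counts under lithium and 1417 to 1670 under vehicle. There 6 of 9 lithium libraries were above all vehicle libraries, as was also so within set 2. Nprl2, a core GATOR1 subunit, had 684 to 809 normalized counts under lithium and 581 to 746 under vehicle in WT, and its difference of 0.16 became 0.03 within set 2. For Nprl3, its partner subunit, the differences were 0.03 in HT and 0.06 in WT, and -0.05 and -0.02 within set 2. Rptor, the scaffold that brings substrates to mTORC1, differed by 0.22 in WT over all libraries and by -0.04 within set 2. Mtor, the kinase itself, differed by 0.08 in WT over all libraries and by -0.09 within set 2. The WT libraries of lithium and of vehicle overlapped for each of these 5 genes.

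**Figure D2:**
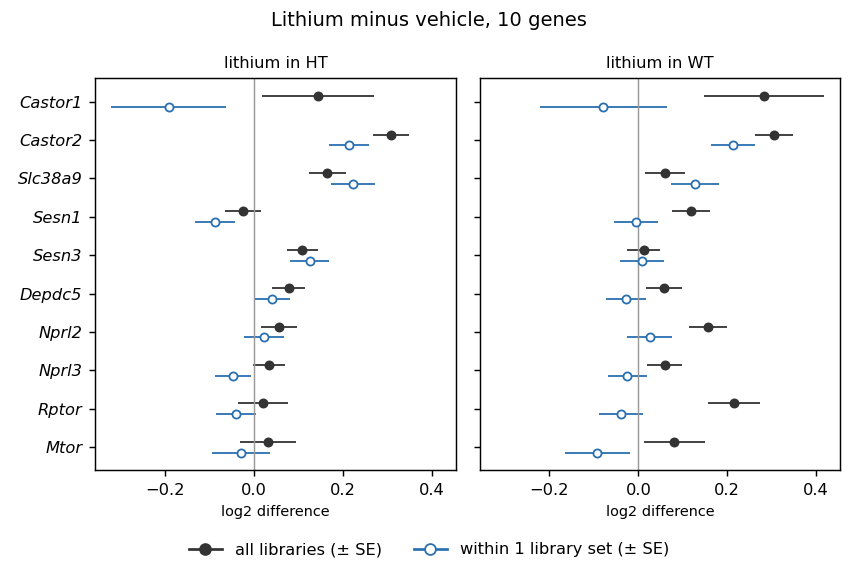
Log2 difference, lithium minus vehicle (x axis), of the 10 genes in HT and WT mice, with bars for ± 1 SE, filled over all libraries and open within set 2. Within set 2 Castor2 is at 0.22 in HT and 0.21 in WT, against 0.31 and 0.30 over all libraries, Slc38a9 in HT is at 0.22, against 0.17, and Rptor in WT is at -0.04, against 0.22.

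Markers of neighbouring tissue also differed between lithium and vehicle libraries. All 8 olfactory bulb markers had lower values under lithium over all libraries, with a median log2 difference of -1.13 in HT and -1.11 in WT, of which 0 passed in HT and 1 in WT. Their summed level was 765 to 5413 in HT lithium and 792 to 31030 in HT vehicle libraries, and 820 to 6828 in WT lithium and 760 to 30390 in WT vehicle libraries. The bulb marker Tbx21 was at 0 in 2 of 68 libraries and the other 7 were above 0 in all. All 9 striatal markers had higher values, with a median of 0.79 in HT and 0.33 in WT, of which 0 passed in HT and 1 in WT, and Isl1 was at 0 in 21 libraries. Their summed level was 5486 to 16670 in HT lithium and 4131 to 18450 in HT vehicle libraries, and 5124 to 11990 in WT lithium and 4132 to 18470 in WT vehicle libraries. Within set 2 the bulb median was -0.77 in HT and 0.67 in WT, and the striatal median was 0.61 in HT and -0.40 in WT. Summed astrocyte markers within set 2 were 57400 to 64100 in WT lithium (median 60220) and 53970 to 59260 in WT vehicle libraries (median 55400). In HT they were 50480 to 59750 under lithium (median 53840) and 52060 to 59460 under vehicle (median 55530). The part of neighbouring tissue and of astrocytes in the lithium values of Castor2, Slc38a9 and the other 8 genes was not tested.

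The Adnp genotype was compared under vehicle, under fluoxetine and under lithium. Under vehicle, Rptor was the 1 gene of the 10 that passed, and 15.0% of all genes did. Rptor had 1889 to 2733 normalized counts in the 16 HT vehicle libraries (median 2516) and 1724 to 2657 in the 15 WT vehicle libraries (median 2112). The groups overlapped, but 15 of 16 HT libraries were above the WT median. The log2 difference was 0.18 (SE 0.05, adjusted p = 0.0071, limma). Within set 2 Rptor had 2458 to 2640 in 6 HT libraries and 2531 to 2657 in 5 WT libraries, and the difference was -0.01 (SE 0.05, adjusted p = 0.999). In the males of set 3 it was 0.02 (SE 0.07, adjusted p = 0.938). Within set 2 none of the 10 genes passed by limma, 0 had an unadjusted p under 0.05, and 0.536% of all genes passed. Mtor had 2768 to 4272 in HT vehicle libraries (median 3513) and 2425 to 3937 in WT vehicle libraries (median 3312). It differed by 0.11 over all libraries (SE 0.05, adjusted p = 0.15) and by 0.00 within set 2. For the other 8 genes the vehicle difference lay between -0.12 (Castor1) and 0.06 (Nprl2) over all libraries.

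The split of Rptor followed the sets within a genotype. The 10 WT vehicle libraries of set 3 had 1724 to 2132 normalized counts (median 1988), and the 5 WT vehicle libraries of set 2 had 2531 to 2657 (median 2577). These do not overlap although the labels give them the same genotype and drug. The share of all genes that do not overlap between these libraries was not counted, so nothing is read from that separation. The 2 HT vehicle libraries of set 3 had 1889 and 2138, also below the 14 HT vehicle libraries of sets 1 and 2, the lowest of which had 2284. Set 3 minus set 2 in WT vehicle libraries was -0.38 for Rptor (SE 0.05, limma adjusted p = 4.6e-09). In that contrast 8 of the 10 genes were lower in set 3, where 21.4% of all genes were lower and 42.4% passed in either direction. They were Castor1 (-0.52), Rptor, Mtor (-0.27), Nprl2 (-0.20), Sesn1 (-0.18), Castor2 (-0.13), Depdc5 (-0.13) and Nprl3 (-0.12). Slc38a9 (0.10) and Sesn3 (-0.01) did not pass. The lithium differences that chose Castor2 and Slc38a9 used these vehicle libraries too. Between the 8 HT vehicle libraries of set 1 and the 6 of set 2, Castor1 was the 1 gene of the 10 that passed, at -0.49 (adjusted p = 0.041), where 1.62% of all genes did. Markers of other cells and regions differed along with it. In the same contrast the olfactory bulb markers were higher in set 3 (8 of 8, median 2.70), the oligodendrocyte markers lower (8 of 8, median -0.82) and the striatal markers lower (7 of 9, median -1.26). Summed oligodendrocyte markers ran from 89190 to 233800 in the 10 set 3 libraries and from 154300 to 242700 in the 5 set 2 libraries, and none of these markers was at 0 in any library. Summed bulb markers ran from 1096 to 30390 in set 3 and from 760 to 9085 in set 2, and summed striatal markers from 4132 to 8849 in set 3 and from 4670 to 18470 in set 2. The part of these tissues in the Rptor values was not tested. The sets were drawn from these same libraries, by pseudogenes that include none of the 10 genes.

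**Figure D3:**
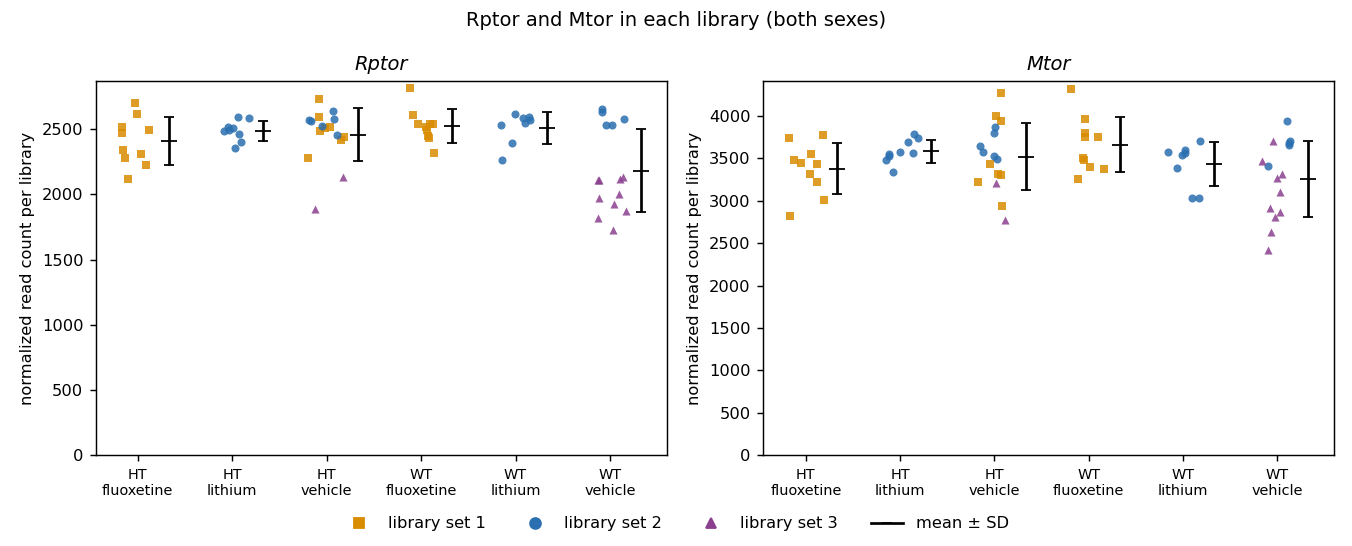
Normalized read count per library (y axis, from 0) of Rptor and Mtor in the 6 groups of genotype and drug, with marker shape and colour for the library set and black bars for mean ± SD. The 10 WT vehicle libraries of set 3 (triangles) have 1724 to 2132 counts of Rptor and lie below the 5 of set 2 (circles) at 2531 to 2657.

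Under fluoxetine none of the 10 genes differed between HT and WT past the threshold by limma, edgeR or DESeq2, and 1.98% of all genes did by limma. Depdc5 had an unadjusted limma p under 0.05, with 1371 to 1669 normalized counts in 10 HT and 1579 to 1741 in 10 WT libraries. Its difference was -0.08 (SE 0.04, adjusted p = 0.37). Castor2 differed by 0.03 (SE 0.04) and Slc38a9 by -0.06 (SE 0.05). All 20 of these libraries belong to set 1.

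Under lithium the 8 genes other than Castor2 and Slc38a9 were tested, and none passed by limma, edgeR or DESeq2, where 2.51% of all genes did by limma. Sesn1 and Sesn3 had unadjusted limma p values under 0.05. Sesn1 had 1317 to 1625 normalized counts in 9 HT and 1358 to 1808 in 8 WT libraries, a difference of -0.12 (SE 0.05, adjusted p = 0.19). Sesn3 had 5183 to 6308 in HT and 4557 to 6105 in WT, a difference of 0.09 (SE 0.04, adjusted p = 0.28). Without WT lithium male replicate 1 the Sesn3 difference was 0.14 and passed (adjusted p = 0.049), and that was the only 1 of the 17 libraries whose removal brought any of the 8 genes past the threshold in the fit over all libraries. In the fit by library set, Sesn1 passed without HT lithium female replicate 2 (-0.14, adjusted p = 0.048) and without WT lithium female replicate 4 (-0.14, adjusted p = 0.040), and Sesn3 without WT lithium male replicate 1 (adjusted p = 0.034). With all 17 libraries none of the 8 passed in that fit, where 4.49% of all genes did. Castor1, the arginine sensor, had 46.5 to 79.1 in HT and 67.2 to 94.5 in WT, which is a difference of -0.26 with a wide error (SE 0.15, adjusted p = 0.42). Castor2 and Slc38a9, given without a test, differed by -0.04 and 0.06, both about the size of their SE of 0.05.

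Fluoxetine was set against vehicle in each genotype. In HT none of the 10 genes passed by limma, edgeR or DESeq2, 0 had an unadjusted p under 0.05, and 1.22% of all genes passed by limma. Differences in HT lay between -0.15 (Castor1) and 0.03 (Sesn1). Within set 1 the Castor1 difference in HT was -0.00, with 40.0 to 70.9 normalized counts under fluoxetine and 46.0 to 69.5 under vehicle, and 0.167% of all genes passed. Castor2 under fluoxetine had 4235 to 5281 in HT and 4100 to 5009 in WT, and under vehicle 3985 to 5168 in HT and 4214 to 5207 in WT, so that these ranges overlapped widely. Its differences were -0.01 in HT (SE 0.04, adjusted p = 0.97) and -0.07 in WT (SE 0.04, adjusted p = 0.26). Slc38a9 differed by -0.03 in HT and by -0.02 in WT, with adjusted p = 0.80 and 0.86. Castor2 and Slc38a9 were chosen by lithium differences from the same vehicle libraries. Their fluoxetine p-values are therefore not independent of that choice.

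In WT, Rptor was the 1 gene of the 10 that passed, and 5.43% of all genes did. It had 2321 to 2816 normalized counts under fluoxetine (median 2529) and 1724 to 2657 under vehicle (median 2112), and all 10 fluoxetine libraries were above the vehicle median. The difference was 0.23 (SE 0.05, adjusted p = 0.012). No library set holds both WT fluoxetine and WT vehicle libraries, so the drug and the set cannot be told apart here. The WT vehicle libraries of set 2 alone had 2531 to 2657, with a median of 2577. Mtor had 3260 to 4319 under fluoxetine (median 3625) and 2425 to 3937 under vehicle (median 3312), with wide overlap, and differed by 0.17 (SE 0.06, adjusted p = 0.081). Castor1 had 47.8 to 75.7 under fluoxetine and 43.7 to 104 under vehicle, a difference of -0.24 that did not pass. The other 5 genes besides Castor2 and Slc38a9 differed by between -0.01 (Nprl3) and 0.06 (Depdc5) in WT, and none passed. The genotype comparison under vehicle and both drug comparisons of WT share the 15 WT vehicle libraries, so the 3 Rptor differences of 0.18, 0.23 and 0.22 are not independent.

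**Figure D4:**
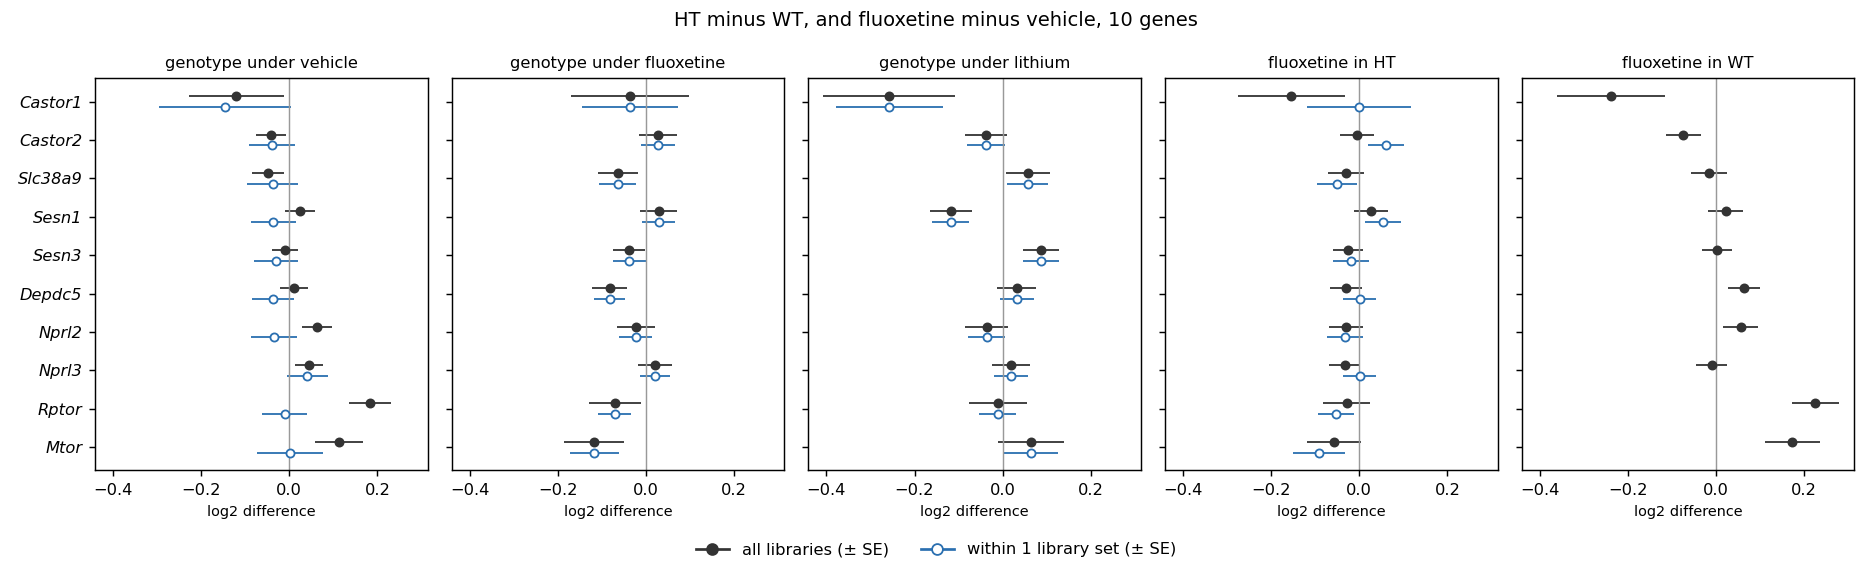
Log2 difference of the 10 genes (x axis, bars ± 1 SE), HT minus WT in the first 3 panels and fluoxetine minus vehicle in the last 2, filled over all libraries and open within 1 set. Rptor reaches 0.18 between genotypes under vehicle and 0.23 under fluoxetine in WT, and is -0.01 between genotypes within set 2.

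Whether the fluoxetine effect differed between genotypes was tested as an interaction. None of the 10 genes passed by limma, as was true of all genes (0.0%). Rptor and Mtor had unadjusted p under 0.05, with differences of effect of -0.25 (adjusted p = 0.17) and -0.23 (adjusted p = 0.28). No library set holds both WT fluoxetine and WT vehicle libraries. A difference in fluoxetine effect between genotypes therefore cannot be told apart from a difference between the sets. Females and males, averaged over the 6 pairs of groups, did not differ past the threshold for any of the 10 genes by limma, edgeR or DESeq2. None had an unadjusted p under 0.05, and 0.1% of all genes passed by limma. The sex differences, female minus male, lay between -0.03 and 0.06. The genotype effect under fluoxetine differed between the sexes at 0.485% of all genes and at none of the 10. For Castor2 that genotype effect was 0.15 in females and -0.10 in males (difference 0.25, adjusted p = 0.19). The genotype effect under vehicle and the fluoxetine effects in HT and in WT differed between the sexes at none of the 10 genes, and at 0.0% of all genes.

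The rest of the pathway was read from 10 lists with 73 genes in the table. The lists were drawn up from textbook roles, with earlier results of these data known. Their lithium p-values are therefore not an independent test of the pathway. In the lithium comparison of WT, 34 of the 73 were higher and 5 lower past the threshold, where 18.6% of all genes were higher and 17.5% lower. The median of the 73 was 0.11, against -0.02 for all genes. The proton pump of the lysosome had 12 of 18 subunits higher and 1 lower, among them Atp6v1e1 (0.29, adjusted p = 1.5e-05) and Atp6v1f (0.29, adjusted p = 4.7e-05). Of the Rag GTPases and their anchor Ragulator 6 of 9 were higher, among them Rragc (0.17, adjusted p = 2.5e-05) and Lamtor4 (0.33, adjusted p = 3.9e-04). Of the other nutrient sensors and transporters 6 of 8 were higher, led by the leucine sensor Sesn2 (0.27, adjusted p = 1.5e-04) and the lysosomal amino acid transporter Slc36a1 (0.41, adjusted p = 2.3e-04). GATOR2 was mixed, with Wdr24 (0.26) and Sec13 (0.17) higher and Mios (-0.24) lower. Flcn, part of the folliculin complex that activates RagC and RagD, was higher (0.33, adjusted p = 4.9e-06). In the TSC complex, the brake on mTORC1, Tbc1d7 (0.19) and Tsc1 (0.11) were higher. Of the other mTORC1 and mTORC2 subunits Prr5 (0.38), Akt1s1 (0.15) and Mlst8 (0.14) were higher and Deptor, an inhibitor subunit, was lower (-0.34). The substrate list had Maf1 higher (0.19) and Rps6kb1 lower (-0.16), and among the regulators of sestrins Foxo4 was higher (0.37) and Foxo1 lower (-0.24). No gene of the tether KICSTOR passed. The differences named above are over all libraries. Of the 15 WT vehicle libraries 10 are in set 3 and no lithium library is. Between the set 3 and set 2 libraries of WT vehicle, 43 of the 73 genes passed by limma, where 42.4% of all genes did. For these values lithium and set cannot be told apart. Oligodendrocyte markers were also higher in this comparison (4 of 8 passed, median 0.45, and -0.15 within set 2), with sums of 112300 to 219500 under lithium and 89190 to 242700 under vehicle, and their part in these values was not tested.

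Within set 2 only 2 of the 73 genes passed in that comparison, where 0.664% of all genes did. Sesn2 had 439 to 591 normalized counts in 8 WT lithium libraries (median 476) and 373 to 408 in 5 WT vehicle libraries of set 2 (median 396). These ranges do not overlap, as was so for 0.993% of all genes, and the difference was 0.31 (SE 0.07, adjusted p = 0.020). Rragc, a Rag GTPase of the lysosomal surface, had 1827 to 2115 under lithium and 1650 to 1836 under vehicle, a difference of 0.14 (SE 0.04, adjusted p = 0.0499). The median of the 73 genes there was 0.04, against -0.0013 for all genes.

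In the lithium comparison of HT only the pump accessory subunit Atp6ap1 passed (0.15, SE 0.04, adjusted p = 0.049), where 1.52% of all genes did. The call was lost on leaving out 8 of the 9 HT lithium libraries in turn, all but female replicate 4, with the difference between 0.14 and 0.15 in those 8. Within set 2 the Atp6ap1 difference was 0.03 (SE 0.03, adjusted p = 0.83), with 10490 to 11560 normalized counts under lithium and 10520 to 11300 under vehicle. Within set 2 none of the 73 passed by limma, with 12 at an unadjusted p under 0.05 and 0.162% of all genes passing. Sesn2 had 378 to 525 normalized counts in HT lithium libraries and 360 to 482 in HT vehicle libraries, with wide overlap.

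**Figure D5:**
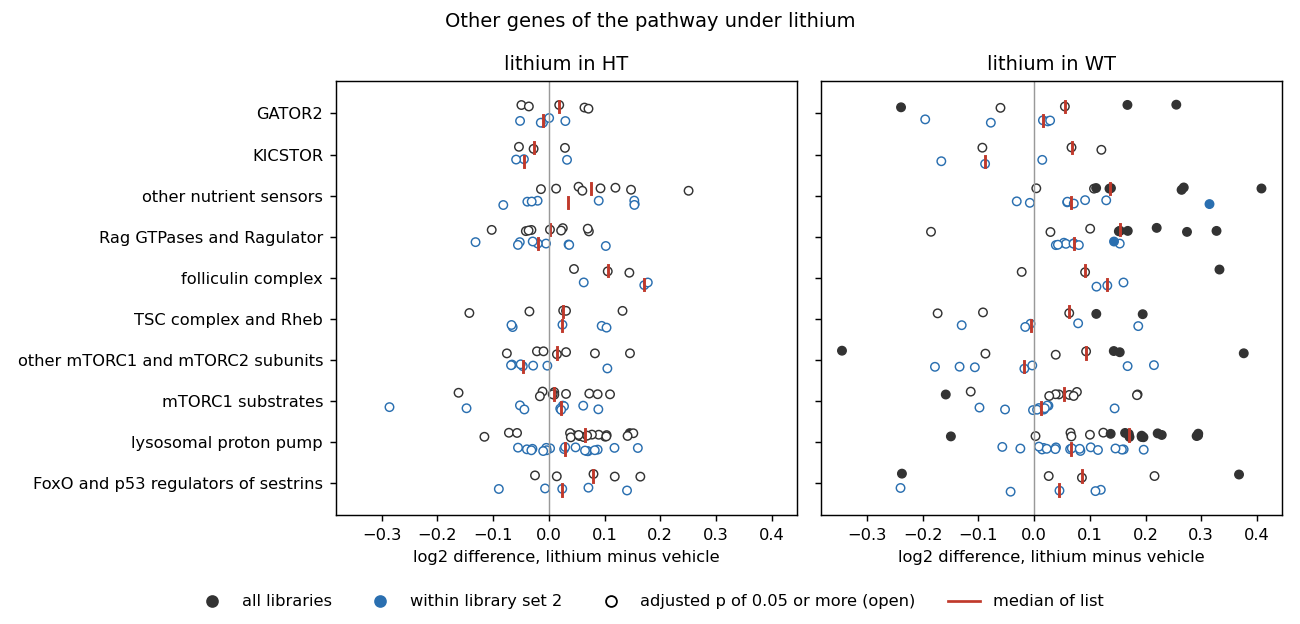
Log2 difference, lithium minus vehicle (x axis), of the 73 other pathway genes by list in HT and WT mice, 1 point per gene, dark over all libraries and blue within set 2, filled where the limma adjusted p is under 0.05, with a red line at the median of each list. In WT 39 genes are filled over all libraries and 2, Sesn2 and Rragc, within set 2.

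In the remaining comparisons few of the 73 genes passed. Under vehicle HT exceeded WT for Wdr24 (0.15), Itfg2 (0.14), Lars (0.08), Lamtor4 (0.19) and Atp6v0c (0.14) and was lower for Rps6kb1 (-0.13), where 15.0% of all genes passed. None of the 73 passed within set 2 by limma, 0 had an unadjusted p under 0.05, and the 6 differences there lay between -0.05 (Rps6kb1) and 0.03 (Lars). Under fluoxetine the pump subunit Atp6v0a2 was lower in HT (-0.11, adjusted p = 0.022, lost without HT fluoxetine female replicate 1), where 1.98% of all genes passed. Under lithium Akt1s1, an inhibitor subunit of mTORC1, was lower in HT (-0.18, SE 0.05, adjusted p = 0.044), with 1075 to 1312 normalized counts in 9 HT and 1248 to 1491 in 8 WT libraries. Its call was lost on leaving out 8 of the 17 libraries in turn, with differences between -0.14 and -0.19 in those 8. In the fit by library set Lamtor2 (-0.20, adjusted p = 0.028) passed as well, in the same fit in which 4.49% of all genes did. In WT fluoxetine exceeded vehicle for Itfg2 (0.26) and Eif4ebp2 (0.11) and was lower for Rps6kb2 (-0.14), where 5.43% of all genes passed. The Eif4ebp2 call was lost on leaving out 8 of the 10 WT fluoxetine libraries in turn, and the Rps6kb2 call on leaving out 4. In HT none passed under fluoxetine by limma or edgeR and 1 by DESeq2, with 16 at an unadjusted limma p under 0.05.

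Over the 68 libraries, with the mean of each of the 12 groups taken off, the genes most like Castor2 were Ripor1 (Pearson r = 0.73), Arhgap39 (0.73), the insulin signalling adaptor Irs2 (0.73), Elfn2 (0.70) and Arhgef11 (0.70). Those most like Slc38a9 were Zfp445 (0.66), Rufy2 (0.64), Abhd18 (0.64), Ankrd12 (0.63) and the DNA repair gene Ercc6 (0.63). Castor2 and Slc38a9 themselves had r = 0.08 with each other. Among the 10 genes the closest pair was Rptor and Mtor (r = 0.66), followed by Depdc5 and Rptor (0.64) and Castor2 and Depdc5 (0.58). Castor1 and Slc38a9 ran in opposite directions (r = -0.40). The libraries share the 3 sets and their depth, so these values describe the libraries and carry no p.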

How the data were processed

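Libraries were made with a stranded kit from poly(A) RNA of 68 prefrontal cortex samples, per the labels' protocols. The authors deposited 1 table, whose signal values are counts scaled by a size factor for each library (called normalized counts here). The submitters' processing notes name Salmon 0.11.2, R 3.6.0, DESeq2 1.19.11 and GRCm38, without their roles. Whether counting used strand is not given in the sources used here, so values of Nprl3 and Mtor, which overlap Mpg and Angptl7 on the opposite strand, and of Depdc5, which overlaps Gm43693, are uncertain to that extent. Whole reads could be recovered, since dividing each column by its step, the worth of 1 read, gave whole numbers within 0.01 for 100% of values. For 60 columns low values sufficed to find that step.

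Tests used limma 3.58.1 in R 4.3.3 on log2(value + 1), with a variance trend and robust shrinkage, 12 groups of genotype, drug and sex in 1 fit, and female and male differences averaged. Log2 differences are on that scale, which understates changes of low genes. The filter, a mean of 5 or more, kept 17922 genes and dropped 166. P-values had Benjamini-Hochberg adjustment and a threshold of 0.05. edgeR 4.0.16 and DESeq2 1.42.0 on recovered reads were alternatives. Unless a tool is named, a p is limma's. The fit was tried on simulated counts for the lithium comparison of HT only. These had the same spread for every gene, no library sets and no shared mothers. The trial therefore cannot show how the p-values behave with sets or shared mothers. To find library sets, the libraries were clustered by their correlation over 361 pseudogenes (average linkage, 3 clusters), which was decided after seeing the data. The within-set fit used group by set. Symbols and lengths came from GENCODE vM21 (18077 of 18088 genes matched).

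The 10 genes and the pathway lists were chosen with earlier results of these data known. Of the 75 list genes 73 were in the table, and Kics2 and Samtor were not matched. The genes named are the 10, Adnp, up to 4 genes past the threshold with the smallest p of each list and comparison, and the 5 most like Castor2 and Slc38a9. Marker genes are named after their values were seen.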

Additional observations from a re-analysis of the deposited data

Results flagged for a closer look

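In 110 combinations of a gene and a group with 4 to 10 libraries, 4 libraries stood apart from the rest of their group, where chance alone gives about 1 in 20. Castor1 had 119 normalized counts in HT vehicle female replicate 8, and the next of the 8 libraries had 77.1. Castor1 also had 75.7 in WT fluoxetine male replicate 4, and the next of the 5 had 53.5. Sesn3 had 5112 in WT fluoxetine female replicate 1, the lowest of 5, with the next at 5375. Rptor had 2354 in HT lithium female replicate 4, the lowest of 4, with the next at 2494.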

How the results depend on the processing

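Of the 10 genes, 1 passed between genotypes under vehicle over all libraries, and 0 passed within set 2, in females alone or in males alone. For fluoxetine in WT the count of 1 became 0 in females alone and 0 in males alone. For genotype under lithium the count ran from 0 to 1 over libraries left out in turn. Each sex alone has fewer libraries, and the shares of all genes there and with libraries left out are not given here. Nothing is therefore read from those counts. Within set 2 the median lithium difference of the 10 genes was -0.0031 in HT and -0.015 in WT. Over males of all sets it was 0.17 in WT. Some differences of the 10 genes past the threshold over all libraries changed sign within set 2. They were Rptor under vehicle (-0.011), Rptor under lithium in WT (-0.040) and Sesn1 under lithium in WT (-0.0053). The pathway gene Atp6v0c under vehicle (-0.029) did so too. Pathway genes in the lithium comparison of WT are not covered by this list. There, Rps6kb1 had a set 2 mean of 1374 under lithium and 1357 under vehicle. Lithium differences of the 10 genes not past the threshold also changed sign within set 2. In HT they were those of Castor1 (-0.19), Nprl3 (-0.05), Rptor (-0.04) and Mtor (-0.03). In WT they were those of Castor1 (-0.08), Depdc5 (-0.03), Nprl3 (-0.02) and Mtor (-0.09). The cause was not tested.

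Of the 73 pathway genes, the counts past the threshold between genotypes under vehicle were 6 over all libraries and 0 within set 2, in females and in males. Under fluoxetine the genotype count of 1 became 0 in males, and was 0 to 1 over libraries left out. Under lithium the genotype count of 1 became 2 in the fit by set and 0 in females and in males, and was 0 to 4. For fluoxetine in HT the count of 0 became 1 with DESeq2 and was 0 to 1, and in WT the count of 3 became 5 with TMM, 8 with DESeq2 and 0 in females, and was 1 to 5. For lithium in HT the count of 1 became 0 with TMM, edgeR, within set 2, in females and in males, and 3 with DESeq2, and was 0 to 3. For lithium in WT the count of 39 became 2 within set 2 and 7 in females, and was 32 to 42. The shares of all genes with TMM, edgeR, DESeq2, either sex alone or libraries left out are not given here. Nothing is therefore read from the counts under those settings.

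Replicate numbers were not used to pair the libraries in the main fit. Same-numbered libraries did not all deviate together. Between HT and WT their r ran from -0.125 to 0.263 in vehicle females and from -0.236 to 0.056 in fluoxetine males. In some comparisons all pairs were positive, with r from 0.029 to 0.442 between HT and WT vehicle males and from 0.065 to 0.218 between HT and WT lithium males. These correlations cannot show whether same-numbered libraries shared a mother. With the replicate number as a block, 2 of the 10 genes, Rptor and Mtor, passed for fluoxetine in WT. Of the pathway genes, 3 passed for fluoxetine in HT, 24 for fluoxetine in WT and 25 for lithium in HT. Vehicle replicates 6 to 8 were all in set 2, and vehicle replicates 1 to 5 were in sets 1 and 3. Drug groups had no replicate above 5. The block thus set the lithium libraries, all of set 2, almost only against vehicle libraries of other sets. Drug and set cannot be told apart in that fit. The share of all genes with the block is not given here, so nothing is read from these counts.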
